A study of Homo sapiens with 12 samples.

Results

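Cytosolic ribosomal proteins are the RPL proteins of the large subunit and the RPS proteins of the small subunit of the ribosome that translates nuclear-encoded mRNAs. All rows of the expression table named RPL or RPS with a number (and an ending A, L or X where there is one), RPLP0 to RPLP2 or RPSA were taken, which gave 84 of 34687 rows, 51 for the large subunit and 33 for the small subunit. RefSeq listed 81 of the 84 as genes and the other 3 (RPL13L, RPL14L and RPS26L) as pseudogenes. The human lines HCT116 (colon cancer) and PANC1 (pancreatic ductal adenocarcinoma) were grown for 12 or 96 h in 0.05% DMSO, the solvent control, or in either of 2 drugs at 10 uM, ICG-001 and C646, and RNA was measured on Illumina HumanHT-12 v4 BeadChips. ICG-001 blocks the binding of the co-activator CBP to β-catenin, and C646 inhibits the histone acetyltransferase activity of CBP and of the related p300. Cultures for 12 h started at a higher confluency than those for 96 h, which were also passaged, so time and culture density cannot be told apart, and fresh medium with drug was given every 24 h. Each of the 12 combinations of line, treatment and time was 1 column of signal, the mean of 2 arrays (3 arrays for PANC1 ICG-001 12 h) from independent cultures. No single-array values were used, so no difference below has a replicate error or a test.

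Each ribosome carries 1 copy of nearly every one of these proteins, and their mRNAs are among the most abundant of a growing cell. Most of these mRNAs begin with a C and a run of pyrimidines at the 5′ end, the TOP motif, through which mTOR signaling, acting in part through LARP1, controls their translation as a group. Their transcription is raised by MYC, and an excess of free RPL5 and RPL11 can bind the ubiquitin ligase MDM2. Ribosomal protein genes are also the largest source of processed pseudogenes in the human genome, and a short probe may read RNA of several near-identical copies.

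Signals are array intensities on a linear scale, and the highest of a column was between 21805 and 25730. The detection limit, set from the peak of background values, was 141.9 to 145.8 in HCT116 and 135.2 to 136.9 in PANC1. A row was tested in a line when its mean log2 signal over the 6 columns of that line was above the mean limit, which kept 15047 rows in HCT116 and 15760 in PANC1. Ratios of rows that no column of a line had above its limit had SDs of 0.062 to 0.075 on the log2 scale, which reflects noise among dim probes only. All 5 epithelial markers (EPCAM, CDH1, KRT8, KRT18 and KRT19) were above the limit in all 12 columns. Of 6 colon markers only CDX2 was above it throughout HCT116, and CDX1, VIL1, LGALS4, CDH17 and KRT20 were not, whereas PANC1 had 3 of 5 duct markers (KRT7, SOX9 and MUC1), and 0 of 4 acinar markers were above it in either line. Of 4 fibroblast markers only COL1A1 was above it in each line, and of 4 leukocyte markers only CD14, in PANC1.

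RefSeq promoter windows (GRCh38.p14), which ran from 250 bases before to 50 bases after the annotated start, were found for 64 of the 84 rows. In 42 of the 64 (65.6%) the annotated first base was a C followed by at least 4 more pyrimidines, compared with 4.04% of all 27305 promoters. That start was found in 25 of 39 large-subunit windows and in 17 of 25 small-subunit windows. The letters TTCCGG, the core bound by ETS factors, stood on either strand in 54.7% of the windows of ribosomal protein genes and in 17.6% of all windows. CCATNTT, the core letters of the YY1 motif, stood in 25% of them and in 15.9% of all, TATAAA in 9.38% and 12.0%, and CACGTG, the E-box that MYC binds, in 4.69% and 7.43%. Of the 15843 windows of protein-coding genes alone, TTCCGG stood in 22.9%, CCATNTT in 14.8%, TATAAA in 9.63% and CACGTG in 8.88%. The pyrimidine start was found in 4.60% of those. A match of letters is a description and not a binding site. The 30 bases around the start, 10 before it and 20 from it, are shown first for rows that fell with a drug. Below them are RPL27A, RPS10, RPS12, RPS19 and RPS27A, above DMSO in all 8 comparisons of a drug with DMSO. RPS27, with log2 ratios of -0.27 to 0.17 in these comparisons, is shown there too. The unbroken run of C and T through the annotated first base is in capitals. A window without capitals starts at a purine.
RPL13A, chr19:49487598-49487627, plus strand: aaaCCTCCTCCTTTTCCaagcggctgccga
RPL29, chr3:51995876-51995905, minus strand: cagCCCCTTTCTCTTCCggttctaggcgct
RPL36, chr19:5690285-5690314, plus strand: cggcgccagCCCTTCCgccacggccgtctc
RPL36A, chrX:101391001-101391030, plus strand: ctcgcggTTTCTTTCTTTCCgcgccgatag
RPS21, chr20:62387093-62387122, plus strand: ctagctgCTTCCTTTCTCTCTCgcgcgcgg
RPS23, chr5:82278335-82278364, minus strand: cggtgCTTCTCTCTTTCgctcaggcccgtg
RPS26, chr12:56041908-56041937, plus strand: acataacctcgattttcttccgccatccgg
RPS27L, chr15:63157458-63157487, minus strand: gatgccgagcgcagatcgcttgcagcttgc
RPL27A, chr11:8682782-8682811, plus strand: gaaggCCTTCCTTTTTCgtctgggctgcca
RPS10, chr6:34426050-34426079, minus strand: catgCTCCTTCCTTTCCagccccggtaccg
RPS12, chr6:132814559-132814588, plus strand: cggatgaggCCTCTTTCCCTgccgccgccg
RPS19, chr19:41860245-41860274, plus strand: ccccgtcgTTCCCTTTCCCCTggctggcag
RPS27, chr1:153990752-153990781, plus strand: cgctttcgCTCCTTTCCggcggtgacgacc
RPS27A, chr2:55231893-55231922, plus strand: agtgacacacaagacccagactcttcccta
Of the 8 rows shown that fell, 6 have the pyrimidine start at the annotated first base and RPS26 and RPS27L do not. The RPS26 window holds a run of C and T shortly after that base. RPL7, RPL13L and RPL23A fell as well and are named only. The annotated start of RPS27A, whose row was higher with both drugs, is not of this kind either. Only the first window listed for a gene was used. Whether these mRNAs start at the annotated base in the 2 lines was not tested.

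Nearly all of the ribosomal protein genes were expressed in both lines. In HCT116 80 of the 84 rows were tested, and in PANC1 81. The row of RPL10, an X-linked gene of the large subunit, was not above the limit on average in either line, with signals of 118 to 132.9 in all 12 columns. Rows named for RPL10 pseudogenes had mean signals up to 22035 in HCT116 and 19374 in PANC1. Whether the RPL10 row reads RPL10 mRNA was not tested. The testis-expressed copy RPL10L and the muscle copy RPL3L were not above the limit on average either, at 121 to 142. RPL39L, the other testis-expressed copy, separated the lines. Its signal was 149 and 147 under DMSO, 144 and 146 under ICG-001, and 143 and 140.2 under C646 at 12 and 96 h in HCT116, where it did not pass the filter. In PANC1 it was 2647 and 2108 under DMSO, 2444 and 2942 under ICG-001, and 2200.4 and 1829 under C646. The lowest PANC1 signal was 1829 and the highest HCT116 signal 149, and since the lines were normalized apart no fold is given. Rows of ribosomal proteins made up 52 to 57 of the 306 to 329 rows with a signal over 10000 in an HCT116 column and 36 to 41 of 237 to 252 in a PANC1 column. Signals of different rows come from different probes, and their order is not an order of mRNA abundance.

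To determine whether the inhibitors altered the ribosomal protein mRNAs as a group, each drug column was divided by the DMSO column from that line and time. The group moved little as a whole, and the rows that changed at least 1.5-fold all fell. In HCT116 the median log2 ratio of the 80 rows was 0.0016 after 12 h and -0.11 after 96 h of ICG-001, while C646 gave -0.06 and -0.01, against -0.0036, 0.00091, -0.01 and -0.0022 for all tested rows. In PANC1 the medians of the 81 rows were -0.03 and -0.05 for ICG-001 and -0.08 and -0.07 for C646, against -0.0012, -0.01, -0.01 and -0.02 for all rows. In RNA from whole cultures, fewer cells with an mRNA and less of it per cell cannot be told apart, and quantile normalization removes any change shared by most rows.

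**Figure D1:**
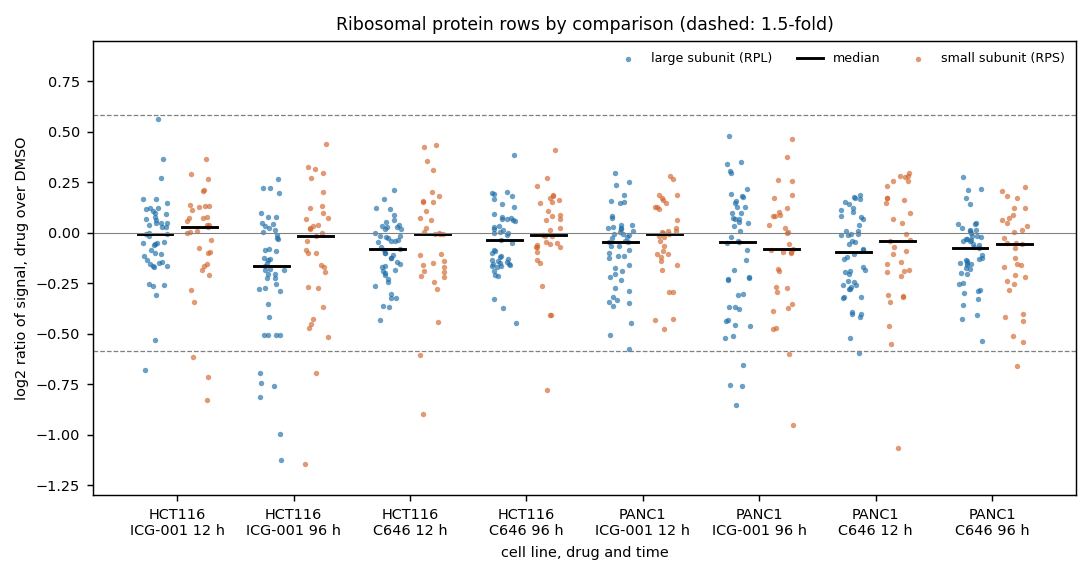
Log2 ratio of signal, drug over DMSO (y axis), for each tested ribosomal protein row in 8 comparisons (x axis), with large-subunit rows in blue, small-subunit rows in orange and a black bar at the median of each. No point lies above the upper dashed line, a 1.5-fold rise, and 24 points lie below the lower one.

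Across the 8 comparisons there were 0 rises and 24 falls of at least 1.5-fold, which came from 11 rows, 7 of the large and 4 of the small subunit. In HCT116 4 of 80 rows fell at 12 h (5%) and 8 at 96 h (10%) of ICG-001, while 4.71% and 5.8% of all tested rows fell and 5.46% and 5.83% rose. With C646 2 of the 80 fell at 12 h and 1 at 96 h, where 1.73% and 1.37% of all rows fell and 2.92% and 2.13% rose. In PANC1 0 of 81 rows fell after 12 h of ICG-001 and 6 (7.41%) after 96 h, against 0.368% and 3.91% of all rows, and 2.39% and 4.23% of all rows rose. With C646 2 of 81 rows fell at 12 h and 1 at 96 h, against 2.99% and 1.28% of all rows, and 4.44% and 3.05% of all rows rose. The share that fell was above that of all rows after 96 h of ICG-001 in both lines, and in the other 6 comparisons it lay within 1 percentage point of it. At a 1.2-fold threshold after 96 h of ICG-001, 24 of the 80 HCT116 rows were lower and 6 higher, where of all 15047 rows 2902 were lower and 2804 higher. In PANC1 25 of the 81 were lower and 7 higher, where of all 15760 rows 2598 were lower and 2419 higher.

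The comparisons of 1 drug share no column between lines or times, so a row can be followed through 4 of them. With ICG-001 27 of the 80 rows tested in both lines (33.8%) were below DMSO in all 4 comparisons and 14 (17.5%) above it in all 4, compared with 20.7% and 19.6% of the 13801 rows tested in both lines. With C646 29 (36.3%) were below and 11 (13.8%) above in all 4, compared with 24.3% and 20.9% of all rows. The drugs were set against the same DMSO columns, so their counts are not independent of each other. The 14 rows above DMSO with ICG-001 included RPL22, RPL30, RPL41 and RPS18, and the 11 with C646 included RPL14, RPS24, RPS25 and RPS27, while RPL27A, RPL39, RPS10, RPS12, RPS19 and RPS27A were among both.

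**Figure D2:**
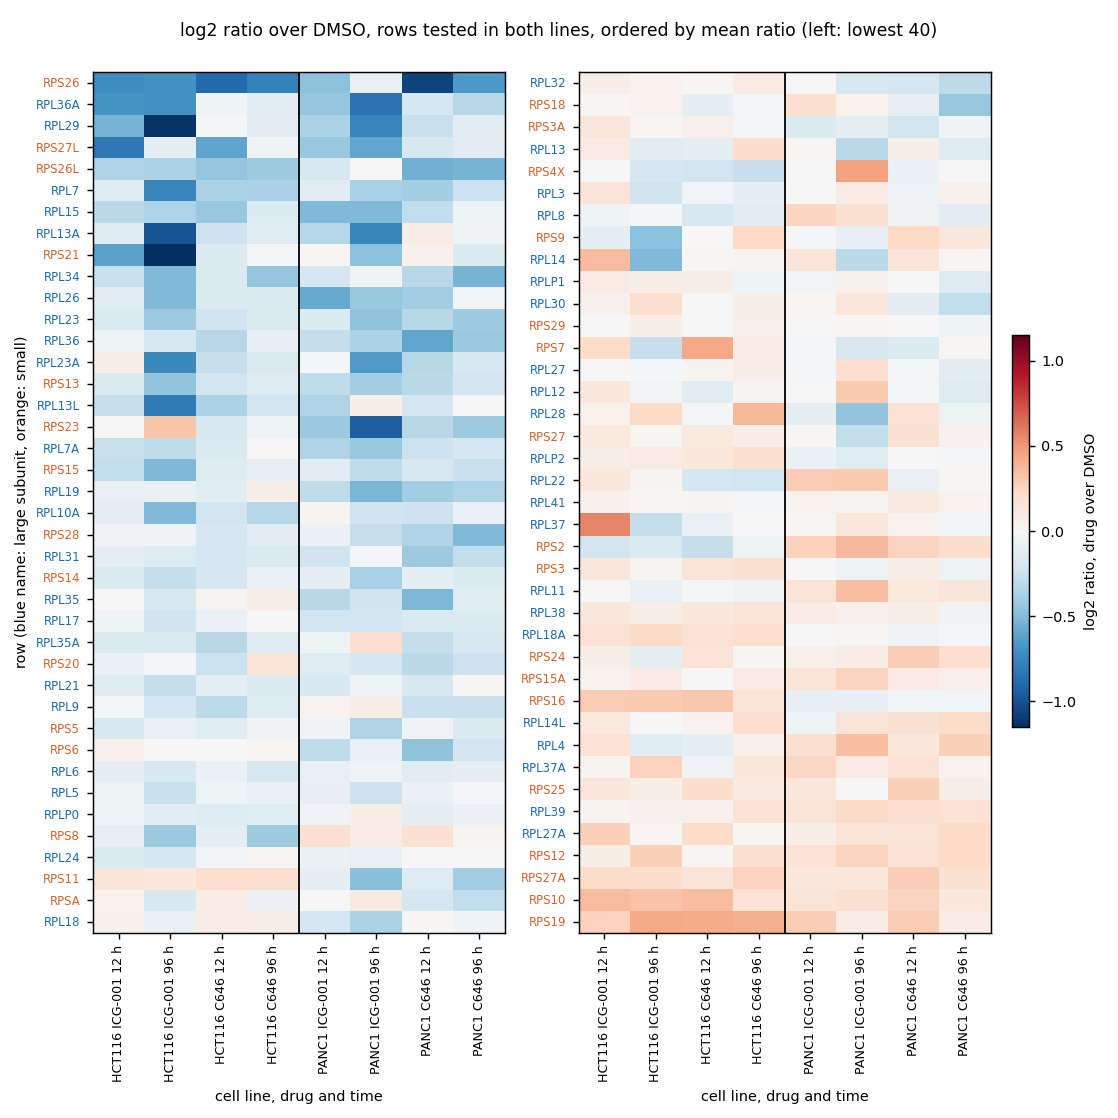
Log2 ratio of signal, drug over DMSO, for 79 of the 80 rows tested in both lines (rows, large-subunit names in blue and small-subunit names in orange) in the 8 comparisons (columns), ordered by the mean ratio over the comparisons. RPS26, RPL36A and RPL29 head the left panel with the lowest means, and RPS19 ends the right panel with the highest.

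In HCT116 the log2 ratios of the large subunit had lower medians than those of the small subunit, by a small margin. After 96 h of ICG-001 the median was -0.16 for 47 RPL rows and -0.01 for 33 RPS rows, a difference of -0.15, with 34 RPL rows and 18 RPS rows below DMSO. At 12 h the medians of RPL and RPS rows were -0.01 and 0.03 for ICG-001 and -0.08 and -0.01 for C646, and C646 at 96 h gave -0.04 and -0.01. In PANC1 the medians after 96 h of ICG-001 were -0.04 for 48 RPL rows and -0.08 for 33 RPS rows, the opposite order. The remaining PANC1 comparisons had RPL medians of -0.05, -0.09 and -0.07 and RPS medians of -0.01, -0.04 and -0.06 (ICG-001 12 h, C646 12 h and C646 96 h). The difference at 96 h of ICG-001 was therefore -0.15 in HCT116 and 0.039 in PANC1, and in the other 6 comparisons it lay between -0.075 and -0.016.

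RPS26 was the row that fell most often, in 6 of the 8 comparisons with DMSO. It encodes a small-subunit protein that lines the channel through which mRNA leaves the ribosome, and it is 1 of the genes mutated in Diamond-Blackfan anemia. In HCT116 its signals at 12 and 96 h were 5104 and 4749 under DMSO, 3109 and 2933 under ICG-001, and 2741 and 2769 under C646. Both DMSO columns were above all 4 treated columns, at log2 ratios of -0.72 and -0.70 for ICG-001 and -0.90 and -0.78 for C646. In PANC1 the signals were 5130.4 and 3483 under DMSO, 3692 and 3289 under ICG-001, and 2454 and 2207 under C646. There the DMSO signal itself was lower at 96 h than at 12 h (log2 ratio -0.56). C646 gave -1.06 and -0.66, while ICG-001 gave -0.47 and -0.08, under 1.5-fold at both times. Compared directly in PANC1, RPS26 was higher with ICG-001 than with C646 by 0.59 at 12 h and 0.58 at 96 h.

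RPS26L, a row that RefSeq names as the pseudogene RPS26P47, had log2 ratios of -0.34, -0.37, -0.44 and -0.41 in HCT116 (ICG-001 12 and 96 h, then C646) and -0.19, 0.0041, -0.55 and -0.54 in PANC1. Its order over the comparisons in PANC1, with C646 lowest, was that of RPS26. A further 13 tested rows carry names of other RPS26 pseudogenes. In PANC1 7 of these 13 fell and 1 rose with C646 at 12 h (median -0.59), whereas 0 of 13 fell with ICG-001 at 96 h (median 0.015). Their HCT116 medians were -0.22 and -0.51 for ICG-001 and -0.44 and -0.46 for C646 at 12 and 96 h. The row named for RPS26P55 went the other way, with ratios of 0.51, 0.50, 0.40 and 0.36 in HCT116. Whether these rows read RPS26 mRNA was not tested.

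**Figure D3:**
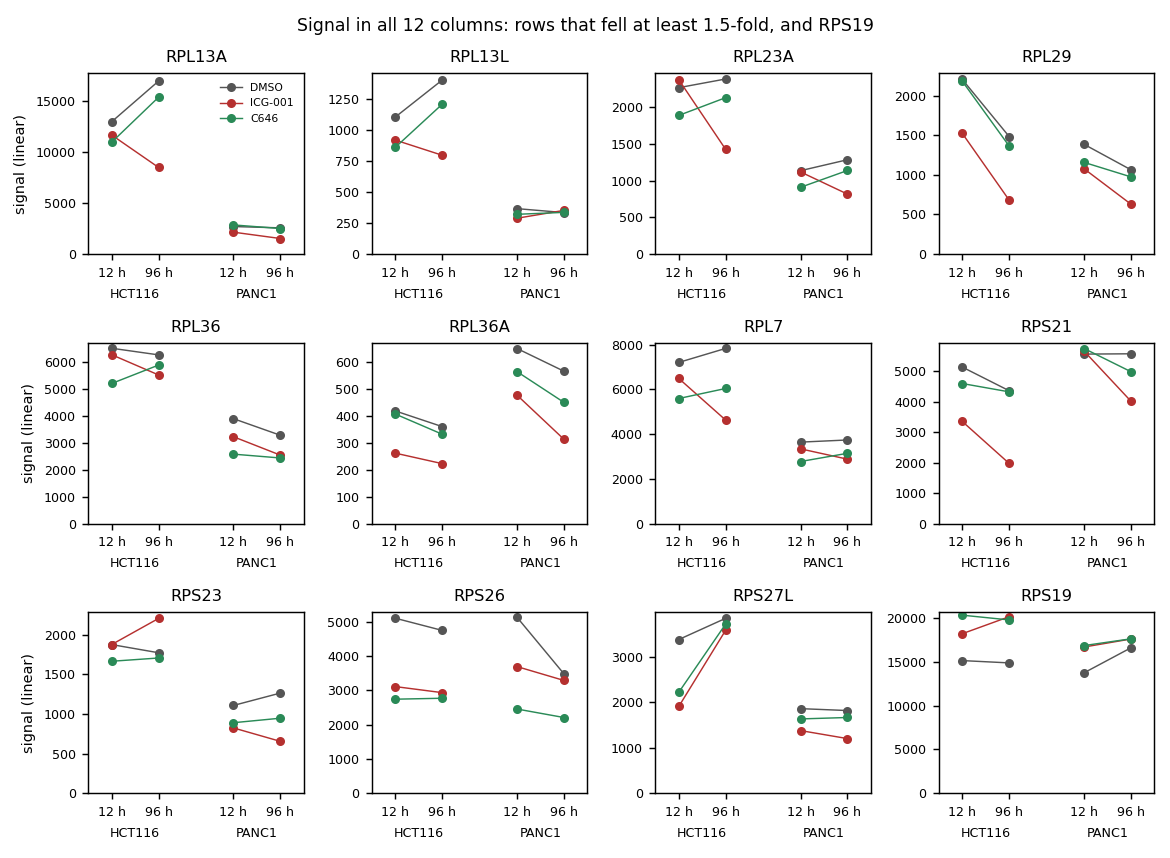
Signal on a linear scale from 0 (y axis) at 12 and 96 h in HCT116 (left) and PANC1 (right) with DMSO (grey), ICG-001 (red) and C646 (green), for the 11 rows that fell at least 1.5-fold with a drug and for RPS19. Each point is 1 column; the red points at 96 h lie below the grey ones for RPL13A, RPL23A, RPL29, RPL36A and RPS21 in both lines, and the RPS26 green points lie below the grey ones throughout.

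RPL13A, RPL23A, RPL29 and RPL36A of the large subunit fell after 96 h of ICG-001 in both lines. RPL29, a basic protein also known for heparin binding, had signals of 2204 and 1483 under DMSO, 1523 and 681 under ICG-001, and 2181 and 1363 under C646 in HCT116. In PANC1 RPL29 signals were 1385 and 1064 under DMSO, 1076 and 629.6 under ICG-001, and 1157 and 974 under C646. The log2 ratios after 96 h of ICG-001 were -1.12 and -0.76, and at 12 h -0.53 and -0.36. The C646 ratios were between -0.26 and -0.01. The DMSO signal was also lower at 96 than at 12 h (-0.57 in HCT116 and -0.38 in PANC1). ICG-001 over C646 at 96 h was at -1.002 and -0.63 in the respective lines.

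RPL13A, a large-subunit protein that also acts outside the ribosome in the GAIT complex, had signals of 12979.6 and 16965 under DMSO, 11676 and 8501 under ICG-001, and 10972 and 15383 under C646 in HCT116. DMSO and C646 columns were higher at 96 h than at 12 h and the ICG-001 column was lower. In PANC1 the signals were 2702 and 2574 under DMSO, 2149 and 1529 under ICG-001, and 2860.1 and 2507 under C646. ICG-001 gave -0.997 and -0.75 over DMSO at 96 h and -0.86 and -0.71 over C646. RPL13A in HCT116 was the only fall, in the 8 comparisons with DMSO, among the 60 HCT116 rows with a mean signal of at least 8306 and the 61 PANC1 rows with one of at least 4938. After 96 h of ICG-001, 4.08% of all 392 HCT116 rows and 4.85% of all 660 PANC1 rows that bright fell.

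RPL23A encodes a protein at the exit of the peptide tunnel, where nascent chains meet the signal recognition particle. Its signals in HCT116 were 2263 and 2381 under DMSO, 2371 and 1424 under ICG-001, and 1886 and 2127 under C646, and in PANC1 1134 and 1283 under DMSO, 1117 and 816 under ICG-001, and 909 and 1137 under C646. The 96 h ICG-001 column was the lowest of the 6 in each line, at -0.74 and -0.65 relative to DMSO, whereas the 12 h ratios were 0.07 and -0.02. Across the 8 proteins of the exit region on the list (with RPL17, RPL19, RPL22, RPL26, RPL31, RPL35 and RPL39), RPL23A was the 1 that fell at 96 h of ICG-001 in either line, and the medians were -0.17 in HCT116 and -0.22 in PANC1. RPL26 was the largest fall of the large subunit in PANC1 at 12 h of ICG-001 (-0.58, from 9530.5 to 6397), just under 1.5-fold.

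RPL36A, an X-linked gene with a near-identical autosomal copy, RPL36AL, was already lower at 12 h. Its signals were 419 and 360.5 under DMSO, 262 and 223 under ICG-001, and 407 and 332 under C646 in HCT116. In PANC1 RPL36A signals were 650.3 and 566 under DMSO, 477 and 313 under ICG-001, and 564 and 450.4 under C646. The ICG-001 column was the lowest at each time in both lines, with 12 and 96 h log2 ratios of -0.68 and -0.69 (HCT116) and -0.45 and -0.85 (PANC1). RPL36AL, which lies outside the naming rule, showed the same order of treatments. Its signals were 11211 and 11554 under DMSO, 5312 and 5779.7 under ICG-001, and 10422 and 10208 under C646 in HCT116. In PANC1 RPL36AL signals were 8850.4 and 8355 under DMSO, 5169 and 3342 under ICG-001, and 7796 and 6963 under C646. The HCT116 ratios for ICG-001 were -1.08 (12 h) and -0.999 (96 h), the PANC1 ratios -0.78 and -1.32, while C646 ratios were between -0.26 and -0.11. The other X-linked rows behaved differently. RPL39 ratios were between 0.03 and 0.22 over the 8 comparisons, and RPS4X was at 0.46 after 96 h of ICG-001 in PANC1, the largest rise of the small subunit there, and at -0.19 in HCT116.

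RPS21 and RPS23 of the small subunit fell with ICG-001 in 1 line each. RPS21, among the smallest proteins of its subunit, had signals of 5132 and 4357 under DMSO, 3349 and 1973 under ICG-001, and 4593 and 4321 under C646 in HCT116, which fell at both times (-0.62 and -1.14), the latter being the largest fall among the 84 rows in these 8 comparisons. In PANC1 the signals were 5559 and 5569 under DMSO, 5655 and 4013 under ICG-001, and 5742 and 4981 under C646, and the ratios were 0.02 and -0.47. RPS23, which sits at the decoding centre, was the reverse. Its PANC1 signals were 1106 and 1262 under DMSO, 822 and 653 under ICG-001, and 888 and 945 under C646, at a log2 ratio of -0.95 for ICG-001 at 96 h, and its HCT116 signals were 1873 and 1770.2 under DMSO, 1874 and 2202 under ICG-001, and 1663 and 1704 under C646, with a ratio of 0.32 at that time. With 1 column a group the difference between the lines was not tested.

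RPS27L and RPS27 encode nearly the same protein. RPS27L signals in HCT116 were 3375 and 3841 under DMSO, 1904 and 3578 under ICG-001, and 2216 and 3714 under C646. It fell with both drugs at 12 h (-0.83 and -0.61) and at 96 h the 3 columns lay between 3578 and 3841. In PANC1 they were 1856 and 1815 under DMSO, 1375 and 1199 under ICG-001, and 1631 and 1662 under C646, with -0.43 and -0.60 for ICG-001. The RPS27 row itself ranged over 8 comparisons from -0.27 to 0.17. The MDM2 row was under the limit in all 12 columns (124 to 141).

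The remaining rows that fell were RPL7, RPL13L and RPL36. RPL7 of the large subunit had HCT116 signals of 7206 and 7831 under DMSO, 6489 and 4629 under ICG-001, and 5593 and 6041 under C646 and fell with ICG-001 at 96 h (-0.76), and both C646 ratios were -0.37. RPL7L1, a nucleolar relative of RPL7 outside the naming rule, went up instead, from 2454 to 5654 with C646 at 12 h in HCT116 and from 3119.9 to 6716 in PANC1, and its 12 and 96 h ratios for ICG-001 were 0.88 and 0.79 (HCT116) and 0.74 and 0.56 (PANC1). RPL13L, a pseudogene of RPL13 by RefSeq, had ratios at 96 h of ICG-001 of -0.81 (HCT116) and 0.07 (PANC1), while RPL13 was at -0.12 and -0.31. RPL36 fell in PANC1 with C646 at 12 h, from 3884 to 2571 (-0.59), and was at -0.32 in HCT116.

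The largest rises of either subunit stayed below 1.5-fold in every comparison with DMSO. RPS19, the gene mutated most often in Diamond-Blackfan anemia, was highest among RPS rows in 4 of the 8 comparisons. Its signals in HCT116 were 15137 and 14873 under DMSO, 18208 and 20149 under ICG-001, and 20322 and 19779 under C646, and in PANC1 13747 and 16599 under DMSO, 16687 and 17603 under ICG-001, and 16853 and 17623 under C646. All 4 treated HCT116 columns were above both DMSO columns, at log2 ratios of 0.27 to 0.44, and in PANC1 the 96 h ratios were 0.08 and 0.09. RPS10, a neighbour of the mRNA entry channel, had HCT116 ratios of 0.37 and 0.32 for ICG-001 and 0.35 and 0.16 for C646. RPS27A, which is made as a fusion with ubiquitin, ranged from 0.12 to 0.28, and RPS12 and RPL27A from 0.03 to 0.27 and from 0.01 to 0.27. Other largest rises of the large subunit were RPL37 at 0.56 (HCT116, ICG-001, 12 h), RPL37A at 0.27, RPL28 at 0.38 and, in PANC1, RPL22 at 0.29, RPL39L at 0.48 and RPL4 at 0.27.

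Functional subgroups differed in how far they moved from DMSO. The stalk proteins RPLP0, RPLP1 and RPLP2, which recruit elongation factors, had ratios between -0.15 and 0.18 over the 8 comparisons. RPL5 and RPL11, which form a particle with 5S rRNA, parted in PANC1. RPL5 ratios were between -0.25 and -0.02 over the 8 comparisons, and RPL11 ratios were between -0.09 and -0.01 in HCT116 and between 0.11 and 0.35 in PANC1. RPS6, the substrate of S6 kinases, had HCT116 ratios of -0.01 to 0.06, and in PANC1 ICG-001 gave -0.29 and -0.08 and C646 -0.46 and -0.21 at 12 and 96 h. RPS14, an mRNA-channel protein lost in the 5q- syndrome, was lowest after 96 h of ICG-001, at -0.27 and -0.37. Among 18 rows of Diamond-Blackfan genes RPS26 was the only one that fell, and the medians of the 18 were between -0.094 and -0.0006.

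Low signal and large falls went together. Of the 80 rows in HCT116, 15 had a mean signal under 5000, and after 96 h of ICG-001 their median was -0.51 with 6 falls, whereas 10 rows between 5000 and 10000 had a median of -0.24 and 55 rows over 10000 a median of -0.043, with 1 fall in each. In PANC1 the 21 rows under 5000 had a median of -0.37 and 6 falls, the 21 rows of the middle range -0.050 and the 39 rows over 10000 0.022, both with 0 falls. Of all tested rows in the same 3 ranges, 5.75%, 9.97% and 3.54% fell in HCT116 and 3.87%, 6.30% and 2.45% in PANC1, and those under 5000 had medians of 0.0026 and -0.0080. With C646 at 12 h the ribosomal protein rows under 5000 had medians of -0.16 (HCT116) and -0.20 (PANC1). Their medians were 0.00051 and -0.19 with ICG-001 at 12 h, and -0.055 and -0.15 with C646 at 96 h. The range edges were chosen after the values were seen, and whether ratios of rows near the top of the scale are compressed was not tested. The rows were also split by the pyrimidine start at the annotated first base, a split made after the values were seen. After 96 h of ICG-001 the median was -0.060 for 42 rows with it and -0.16 for 20 without it in HCT116. In PANC1 the medians were -0.070 and -0.13. In each line 4 rows with it and 1 without it fell, where 5.8% of all HCT116 rows and 3.91% of all PANC1 rows fell.

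**Figure D4:**
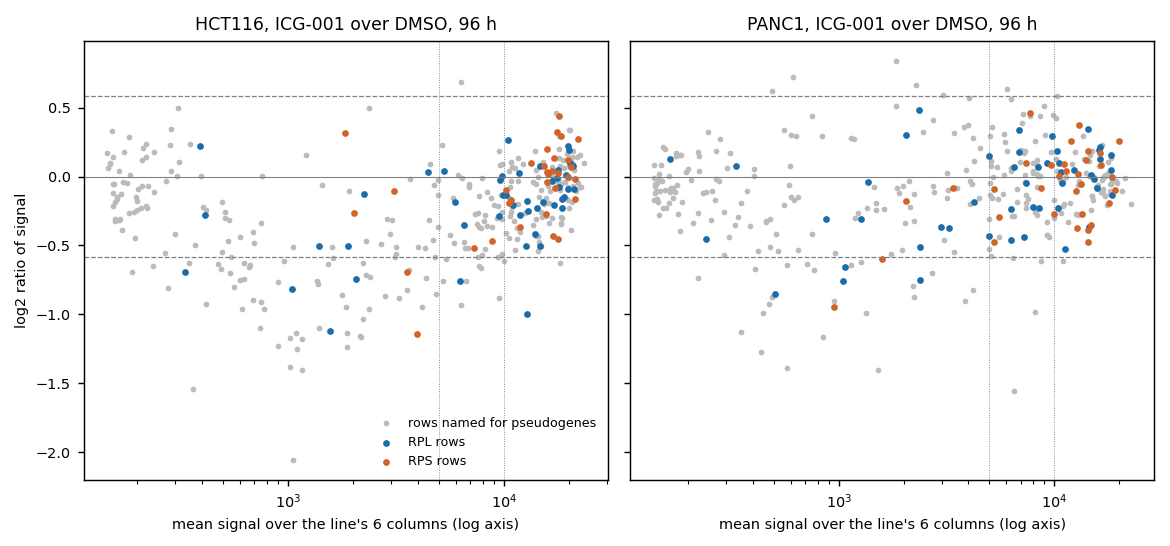
Log2 ratio after 96 h of ICG-001 (y axis) against the mean signal over the line's 6 columns on a log axis, for RPL rows (blue), RPS rows (orange) and rows named for ribosomal protein pseudogenes (grey), in HCT116 (left) and PANC1 (right). Dotted vertical lines stand at 5000 and 10000; RPL13A in HCT116 is the 1 RPL or RPS point over 10000 past the lower dashed line (1.5-fold).

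Rows named for ribosomal protein pseudogenes had lower medians than the genes after 96 h of ICG-001, though not in every range of signal. Of 414 such rows, 292 were tested in HCT116 and 284 in PANC1. At 96 h of ICG-001, 64 of 292 HCT116 rows fell and 1 rose (median -0.26), where 5.8% of all rows fell and 5.83% rose. Of the 284 PANC1 rows 27 fell and 6 rose (median -0.083), where 3.91% of all rows fell and 4.23% rose. Under 5000, the medians were -0.41 (147 rows, HCT116) and -0.12 (160 rows, PANC1), above those of the ribosomal protein rows (-0.51 and -0.37). At 5000 to 10000 they were -0.32 and 0.015, against -0.24 and -0.050, and over 10000 -0.069 and -0.030, against -0.043 and 0.022. For RPS27, whose own row was at 0.02 and -0.27, 5 of 8 pseudogene rows fell in HCT116 (median -0.74) and 6 of 8 in PANC1 (median -1.20). The row of RPS27P7, for example, was at -1.17 and -1.39 and that of RPS27P6 at 0.13 and -0.20. For RPL7, 6 of 10 pseudogene rows fell in HCT116 (median -0.67, with RPL7 itself at -0.76), and for RPL13A 0 of 8 fell (median -0.21), although RPL13A did. RPL10 had 6 tested pseudogene rows, with HCT116 mean signals from 213 to 22035, although its own row was not above the limit. Which transcripts each of these rows reads was not tested.

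To see which rows differed between the time points without a drug, the DMSO columns at 96 and 12 h were compared. Those cultures also differed in starting confluency and passaging, which cannot be told apart from time. RPS7, a small-subunit protein that can bind MDM2, was lower at 96 h with every treatment. Its signals in HCT116 were 2389 and 1301 under DMSO, 2765 and 1081 under ICG-001, and 3229.8 and 1379 under C646, a log2 ratio over time of -0.88 with DMSO, -1.35 under ICG-001 and -1.23 under C646. In PANC1 they were 2483 and 1778 under DMSO, 2446 and 1569 under ICG-001, and 2229 and 1793 under C646 (-0.48, -0.64 and -0.31). RPL37 in HCT116 had signals of 303 and 509 under DMSO, 447 and 420.2 under ICG-001, and 286 and 509.9 under C646, so that it was higher at 96 h with DMSO (0.75) and C646 (0.83) and not with ICG-001 (-0.089). RPL34 in HCT116 had signals of 1869.7 and 1354 under DMSO, 1570.0 and 954 under ICG-001, and 1664 and 992 under C646, with ratios over time of -0.47, -0.72 and -0.75. RPS7 and RPL37 were the 2 of 80 rows in HCT116 that passed 1.5-fold between DMSO columns, where 3.45% of all rows did, and 0 of 81 passed in PANC1, where 1.38% did. The DMSO 96 h column also serves the 96 h drug ratios, so a row that is high in it is lower in those by construction.

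ICG-001 was also set directly against C646. In HCT116 2 of 80 rows differed at 12 h (RPL36A at -0.64 and RPL37 at 0.64), compared with 7.12% of all rows, and 5 at 96 h, compared with 7.4%. All 5 were lower with ICG-001, namely RPL13A, RPL13L (-0.60), RPL29, RPS21 (-1.13) and RPS9 (-0.70), the last with 6720.2 against 10941. RPS9 lies near the mRNA entry channel. In PANC1 1 of 81 rows differed at 12 h (RPS26, higher with ICG-001), where 2.8% of all rows did, and 3 at 96 h, where 7.61% did. These were RPL13A and RPL29, lower with ICG-001, and RPL39L, higher (2942 against 1829, 0.69). The medians of the group in these 4 comparisons were 0.04, -0.08, 0.01 and -0.0017.

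Lists for other parts of the translation machinery were followed through the same comparisons. Mitochondrial ribosomal proteins, which serve the separate ribosome of that organelle, had HCT116 medians over 76 rows of -0.18 (12 h) and -0.19 (96 h) for ICG-001 and 0.03 and -0.06 for C646, and medians between -0.17 and -0.12 in PANC1. In PANC1 9 of the 76 fell after 96 h of ICG-001, led by MRPL2 (-1.06), and 0 rose. Of all PANC1 rows 3.91% fell and 4.23% rose in that comparison. Ribosome assembly factors had medians over 73 rows of 0.14 (ICG-001) and 0.21 (C646) at 12 h in HCT116 and of 0.01 and -0.03 at 96 h. With ICG-001 at 96 h, 5 of the 73 rose and 8 fell, where 5.83% of all rows rose and 5.8% fell. In PANC1 the medians over 74 rows of assembly factors were between -0.17 and -0.09. DDX51, an RNA helicase of large-subunit assembly, rose with both drugs at 12 h in both lines. With C646 it went from 1021 to 2599 in HCT116 and from 1115 to 2716 in PANC1. The ICG-001 log2 ratios at 12 h were 0.93 in HCT116 and 0.67 in PANC1. Of the listed translation factors and other genes with TOP mRNAs, 14 rows were tested. Their HCT116 medians were -0.11 and -0.24 for ICG-001 and -0.14 and -0.092 for C646 at 12 and 96 h. The PANC1 medians were -0.039 and -0.0051 for ICG-001 and -0.082 and -0.16 for C646. After 96 h of ICG-001, 3 of the 14 fell in HCT116 and 2 in PANC1, where 5.8% and 3.91% of all rows fell. NAP1L1 fell most (-0.87 and -1.19). EIF4B fell with C646 at both times in both lines (-0.65, -0.59, -0.77 and -0.64), and EEF1A1 stayed between -0.03 and 0.17. The 15 rows of the rRNA synthesis machinery had medians from -0.14 to 0.16.

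**Figure D5:**
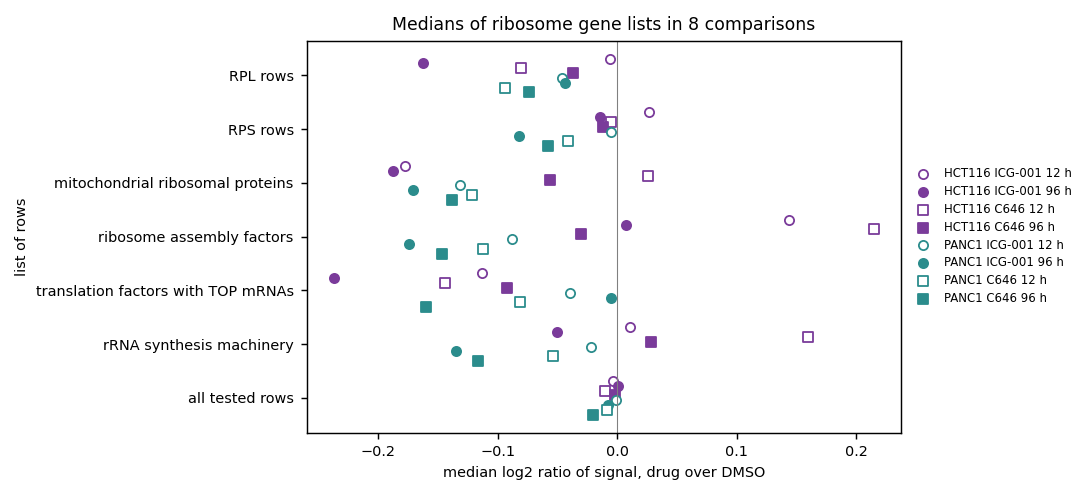
Median log2 ratio, drug over DMSO (x axis), for lists of ribosome-related rows (y axis) in 8 comparisons, with HCT116 in purple, PANC1 in teal, ICG-001 as circles, C646 as squares, 12 h open and 96 h filled. Medians of RPL and RPS rows lie between -0.16 and 0.027, and that of assembly factors with C646 at 12 h in HCT116 is at 0.21.

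Among regulators, MYC had signals of 3267 and 4307 under DMSO, 4164 and 2190.2 under ICG-001, and 3623 and 3929 under C646 in HCT116. In PANC1 MYC signals were 1045 and 1272 under DMSO, 1507 and 1445 under ICG-001, and 1375 and 1343 under C646. Only the 96 h ICG-001 column of HCT116 was below DMSO by 1.5-fold (-0.98), and that at 12 h was above it (0.35). DDIT4 and SESN2, inhibitors of mTOR signaling, rose with ICG-001 at 12 h in both lines. DDIT4 ratios were 1.13 in HCT116 and 1.64 in PANC1, while C646 gave -0.39 and 0.40, and SESN2 went from 164 to 354 in HCT116 and from 122, under the limit, to 207 in PANC1. The 2 rows named for ribosomal RNA genes on the list rose. LOC100008589 went from 399 to 1733 with ICG-001 at 12 h in HCT116 and from 173 to 2841 at 96 h in PANC1, and LOC100008588 went from 141 to 1340.3 under ICG-001 and 1109 under C646 at 12 h in PANC1. Their part in the ratios of the ribosomal protein rows was not tested. In the PANC1 96 h ICG-001 column, where 6 ribosomal protein rows fell, 3 of the 5 epithelial markers fell as well, with a median of -0.78 over the 5, and their summed signal was the lowest of the 6 PANC1 columns (8882, where the highest was 20320). In HCT116, where 8 rows fell in that comparison, 0 of the 5 markers did. Their part in the result was not tested.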

How the data were processed

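RNA from 2 cell lines under 3 treatments at 2 time points gave 12 groups of 1 column each, taken from the labels. The deposited values are signal intensities on a linear scale, which the authors exported from GenomeStudio with quantile normalization and no background subtraction and then averaged over replicate arrays (2 arrays for 11 columns and 3 for 1). The array build was not given in the sources used here, and arrays have no read depth, so their number limits the precision. The lines had been normalized apart and were compared within themselves.

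Differences of log2 signal between columns were taken in 14 comparisons. As detection limit served the peak of a column's log2 signals plus 2.33 SD (the 99% normal quantile), the SD being that of values lower than the peak. A row was tested where its mean log2 signal over the 6 columns of a line was above their mean limit, and called changed at 1.5-fold. With 1 column a group no test or p-value was possible. Members named were those changed in any comparison, the largest rise and fall of each subunit, and subgroups by role. The members and the gene lists were chosen with earlier results of these data known. Symbols and promoter windows came from RefSeq (GRCh38.p14), and no protein sequence was used. A few genes were left out of the text and the heat map. As alternatives served fold thresholds of 1.2 and 2, other filters, normexp (offset 16), centring, quantile normalization over 12 columns and leaving out rows ending in L. The counting was run on simulated columns with planted 2-fold changes and noise of the size seen in dim rows. That run checks the counting only and cannot show how far bright rows vary between replicates. Python 3.11.15 (pandas 2.3.3, numpy 2.4.6, scipy 1.17.1, matplotlib 3.10.9) and limma 3.58.1 in R 4.3.3 were used.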

Additional observations from a re-analysis of the deposited data

Results flagged for a closer look

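RPL11, which binds 5S rRNA together with RPL5, differed in direction between the lines. All 4 HCT116 log2 ratios of drug over DMSO lay below 0 (-0.09 to -0.01) and all 4 PANC1 ratios above it (0.11 to 0.35), and the mean of the HCT116 ratios minus that of the PANC1 ratios was -0.23. The HCT116 ratios nearest 0 were smaller than the noise of dim probes, the ratios of a line at 1 time share a DMSO column, and the difference was not tested. No group had enough columns to look for outlying samples.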

How the results depend on the processing

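No paired analysis was possible because each group had 1 column, and no replicate could be left out for the same reason. At a 1.2-fold threshold, the ribosomal protein rows changed in HCT116 were 15 (ICG-001) and 15 (C646) at 12 h and 30 and 10 at 96 h, 9 between the DMSO columns, and 10 and 17 for ICG-001 over C646 at 12 and 96 h. In PANC1 the same counts were 18 and 23 at 12 h, 32 and 16 at 96 h, 8, and 13 and 28. At a 2-fold threshold the HCT116 counts of ribosomal protein rows were 0 (ICG-001, 12 h), 2 (ICG-001, 96 h), 0 (C646, 12 h), 0 (C646, 96 h), 0 (DMSO over time), and 0 and 2 (ICG-001 over C646). In PANC1 they were 0 (ICG-001, 96 h), 1 and 0 (C646, 12 and 96 h), and 0 and 0 (ICG-001 over C646). Leaving out rows ending in L gave 1 (from 2) for C646 at 12 h in HCT116 and lowered 5 other counts by 1 each, quantile normalization over all 12 columns gave 1 for ICG-001 at 12 h in PANC1, and normexp gave 7 for ICG-001 over C646 at 96 h in PANC1. The medians of the ribosomal protein rows and the differences between subunits moved by less than the SD of dim-probe ratios in all 14 comparisons under each other filter and scaling, and the 37 ratios of rows changed at least 1.5-fold kept their direction and stayed past that threshold under normexp, centring and quantile normalization over 12 columns, although their sizes moved, from a range of -1.14 to 0.75 to one of -1.25 to 0.99 with normexp. The brightness ranges and the split by pyrimidine start were chosen after seeing the data. A planned comparison of protein sequences was not run. Rows near the background have understated ratios, and values of single arrays were not used, so no ratio has an error.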
